A study of Mus musculus with 6 samples.

Results

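Glycolytic enzymes and lactate dehydrogenases were followed as 10 genes in whole mouse soleus, a hindlimb muscle of largely slow and oxidative fibres. The set held the hexokinase Hk2, the phosphofructokinase Pfkm, the aldolase Aldoa, the triose phosphate isomerase Tpi1, the phosphoglycerate mutase Pgam2, the enolase Eno3, the pyruvate kinase Pkm, the lactate dehydrogenase subunits Ldha and Ldhb, and the cytosolic glycerol-3-phosphate dehydrogenase Gpd1. Each gene was read from a feature annotated with its symbol alone, and each of the 10 had 1 such feature. All 10 lay among the 18334 genes that passed the filter on low signal, which asked for a value above the array median on at least 3 arrays. Soleus RNA from 3 cKO mice and 3 Control mice was hybridised, 1 array per mouse. The cKO mice carried a knockout of Mbtps1, the gene of site-1 protease, made with a DMP1 Cre transgene, whose driver Dmp1 is known from bone-embedded osteocytes. Control mice were littermates labelled wild type, and all mice were males of 39 to 41 weeks. Cre lines with this driver are known to act in some skeletal muscle fibres as well, and which cells of these soleus muscles lost Mbtps1 is not said by the labels.

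Glycolysis splits glucose into pyruvate in the cytosol and gives muscle ATP without oxygen. Fast fibres depend on it heavily, and several steps use a muscle form of the enzyme, among them Pfkm, Pgam2 and Eno3. Lactate dehydrogenase is a tetramer of A subunits, encoded by Ldha, and B subunits, encoded by Ldhb. A-rich tetramers are typical of fast muscle and B-rich tetramers of heart and slow oxidative muscle. Gpd1 takes electrons from cytosolic NADH to glycerol-3-phosphate, which serves both the shuttle into mitochondria and the synthesis of lipids.

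Values are log2 signals as deposited, so a difference of 1 is a 2-fold change, and signals of different genes are not set against each other. The number of arrays limits the precision. Nothing in the labels says that mice were pooled, and p-values measure the spread between these mice. Mice carried numbers in 2 ranges, a high one (776 for Control 3, 779 for cKO 2 and 780 for cKO 3) and a low one (715 and 716 for Control 1 and Control 2, 733 for cKO 1). The labels do not say what a range stands for. The first principal component, with 43.9% of the variance, separated the ranges. The second component, with 22.3%, set cKO 1 apart, which also had the highest array median (4.37). The median difference over all 33334 features tested was 0.07 (cKO minus Control), and -0.0038 after quantile normalization. All 8 muscle fibre markers passed the filter, with Acta1 at the maximum of every array, and the list means were 16.7 to 16.9 in cKO and 16.7 to 16.8 in Control. Mbtps1 was at 7.77, 7.44 and 7.11 in cKO 1 to 3, against 7.39, 7.05 and 7.24 in Control 1 to 3 (limma adjusted p = 0.999). Whether the feature lies in the floxed region is unknown here, so its level is no check of the labels. Whole muscle also holds other cells, and fewer cells of a type cannot be told apart from less RNA per cell.

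Setting cKO against Control soleus addresses how loss of Mbtps1 under this Cre driver bears on gene expression in the muscle. No large shift of the glycolytic set was measured. The means of Eno3, Pgam2, Ldha, Pfkm, Tpi1 and Aldoa were higher in cKO soleus, by 0.04 to 0.32 log2 units, and those of Ldhb, Gpd1, Hk2 and Pkm were lower, with differences of -0.48 to -0.0086. In the limma test 0 of the 10 members met an adjusted threshold of 0.05 and 0 met an unadjusted one, and every adjusted p was 0.999. Over all features tested the shares were 0% at the adjusted and 4.50% at the unadjusted threshold. With 6 members higher against 65.8% of all features, and a median of 0.10 against 0.07, the set lay close to the background. Aldoa counts among the 6, but its signal moved with the array maximum on most arrays, and no direction is read from it. After quantile normalization 7 members were higher against 49.1% of all features, and the median was 0.07. With the number range as a term in the fit 0 members had an unadjusted p under 0.05, against 6.01% of all features, and the interaction of genotype with range gave 0 members, against 17.2%.

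Marker genes of other cell types were set against the same background. Of all features tested 65.8% had a higher mean in cKO, and 4.50% had an unadjusted p under 0.05 by limma. Of 10 tendon markers 9 passed the filter and all 9 had a higher mean in cKO, 6 of them with an unadjusted and 0 with an adjusted p under 0.05 by limma. Their list mean was 7.15 to 7.43 on the cKO arrays, against 5.77 to 6.59 on the Control arrays. The 5 endothelial markers tested, of 6 listed, had lower means in cKO, with list means of 9.89 to 10.01 in cKO and 9.78 to 10.83 in Control. Of these only Cldn5 had an unadjusted p under 0.05 by limma, with all cKO arrays below all Control arrays. Such a separation in either direction was found in 11.0% of all features. All 6 macrophage markers had higher means in cKO (median difference 0.33, 0 with an unadjusted p under 0.05), with list means of 6.13 to 7.03 in cKO and 5.75 to 6.47 in Control. Of 8 adipocyte markers 7 were tested and 5 had higher means in cKO (median difference 0.36), 2 of them with an unadjusted p under 0.05 by limma. All cKO arrays lay above all Control arrays for 3 adipocyte and 6 tendon markers, against 8.95% of all features. Of the fibroblast markers tested 3 had higher and 2 lower means in cKO, and of the Schwann cell markers 2 had higher and 1 a lower mean. The part of these cell types in the members' differences was not tested.

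**Figure D1:**
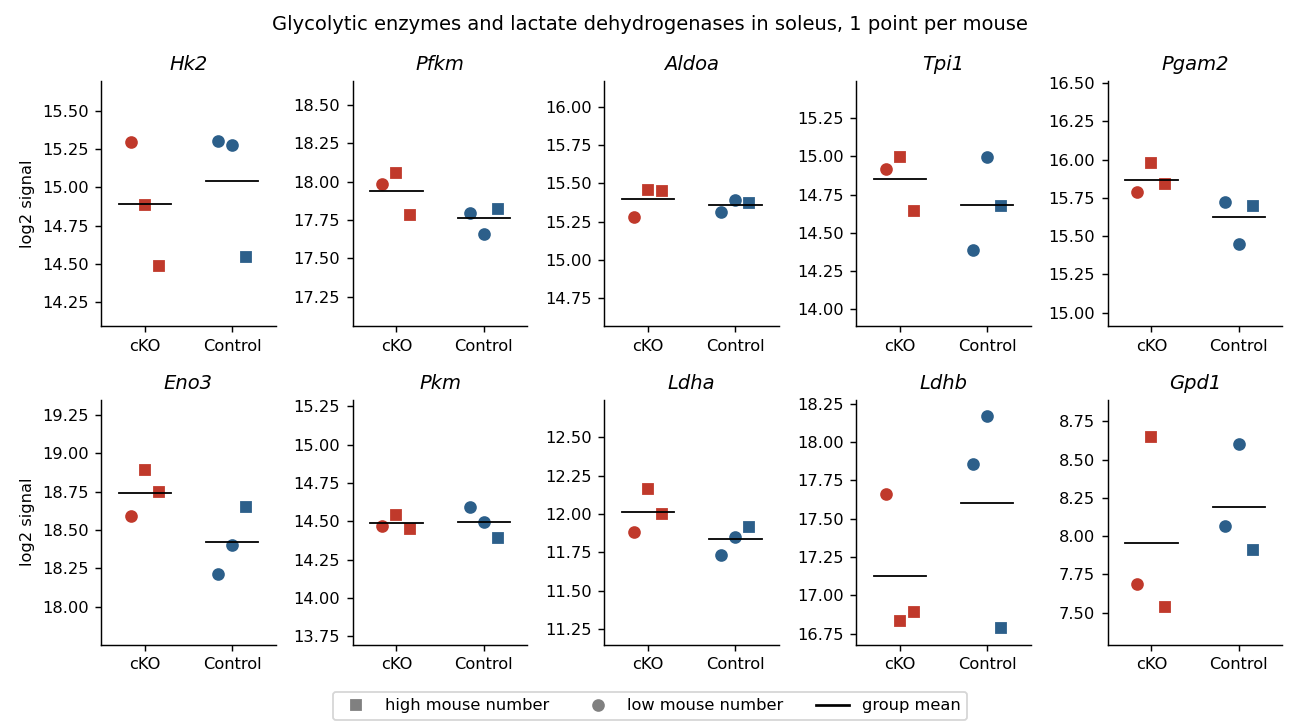
Log2 signal (vertical axis) of the 10 genes on each array, with cKO left and Control right. Each point is 1 mouse, squares mark high and circles low mouse numbers, and the line is the group mean; every panel spans the same number of log2 units. The groups overlap in every panel except Pgam2, and the squares of Hk2 and Ldhb lie below the circles.

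The upper steps of the pathway, which spend ATP to trap and split glucose, gave small or uneven differences. Hk2, the insulin-responsive hexokinase that phosphorylates glucose on entry, was at 15.30, 14.88 and 14.49 in cKO 1 to 3, against 15.30, 15.28 and 14.55 in Control 1 to 3. The groups overlapped fully, and the low values were those of the high mouse numbers in both. The difference was -0.15 (SE 0.31, 95% confidence interval -0.89 to 0.59, limma adjusted p = 0.999), and it was 0.14 within the high and 0.0074 within the low numbers. Pfkm encodes the muscle subunit of phosphofructokinase, the committed and most tightly regulated step. Its signal was 17.98, 18.05 and 17.78 in cKO 1 to 3, against 17.80, 17.66 and 17.82 in Control 1 to 3. cKO 1 and cKO 2 lay above every Control array, and cKO 3 lay below Control 1 and Control 3. The Pfkm difference was 0.18 (SE 0.16, interval -0.21 to 0.57), with 0.10 within the high and 0.25 within the low numbers.

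Tpi1, which interconverts the triose phosphates, was at 14.92, 15.00 and 14.64 in cKO 1 to 3 and at 14.39, 15.00 and 14.67 in Control 1 to 3. Control 1 stood lowest and the other 5 arrays overlapped. The difference was 0.17 (SE 0.23, interval -0.38 to 0.71), and without Control 1 it was 0.018.

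Aldoa, the muscle aldolase that cleaves fructose bisphosphate, showed the smallest spread over arrays, 0.17 log2 units. Its signal was 15.28, 15.45 and 15.45 in cKO 1 to 3, against 15.31, 15.39 and 15.37 in Control 1 to 3. The difference was 0.04 (SE 0.17, interval -0.36 to 0.43). No member came within 0.01 of its array's maximum on any array, so none was at the ceiling of the scale by that rule. Aldoa nevertheless moved with the maximum. Its offset from the array maximum was -4.48 to within 0.002 on 4 arrays (cKO 1, cKO 3, Control 1 and Control 2), with -4.47 on cKO 2 and -4.54 on Control 3. Such a shared offset on at least 4 arrays was found in 2 of 730 features with a mean signal of 14 to 16 (0.274%), and in 0.255% of all features tested. Gapdh, the glyceraldehyde-3-phosphate dehydrogenase of the next step, kept an offset of -0.66 on all 6 arrays. Its differences between arrays were therefore those of the array maxima, and no fold is given for it. For Aldoa the signal on those 4 arrays likewise differed only as their maxima did, so no direction is read from its difference. The check of offsets was added after the values were seen. Of the other 9 members none shared an offset on 2 arrays, and the closest to its maximum was Eno3, 1.03 below it on cKO 2.

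**Figure D2:**
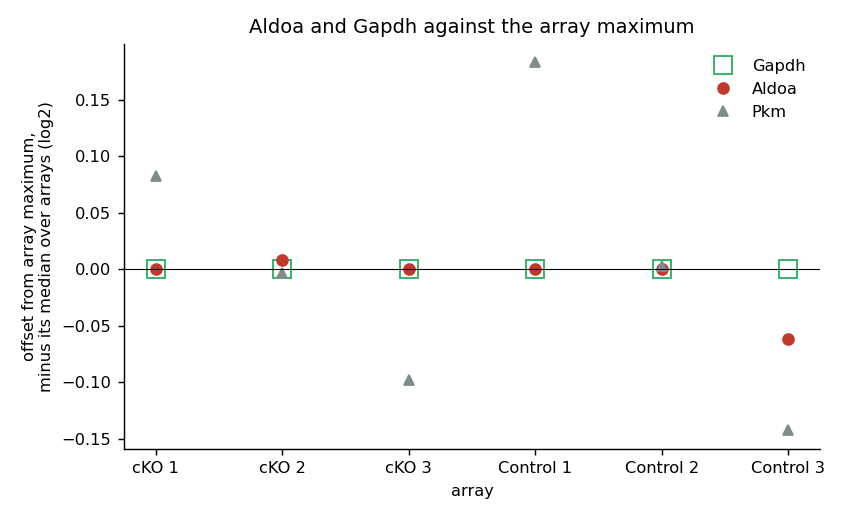
Offset of each gene's log2 signal from the maximum of its array, minus the gene's median offset (vertical axis), for the 6 arrays (horizontal axis, cKO left of Control). Gapdh (open squares) lies at 0 on all 6 arrays, Aldoa (circles) at 0 on 4 of them, and Pkm (triangles) is shown for a gene without a shared offset.

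The lower steps of the pathway, which yield ATP and pyruvate, held the members with the highest positive differences. Pgam2, the muscle form of phosphoglycerate mutase, was at 15.79, 15.98 and 15.84 in cKO 1 to 3, against 15.72, 15.45 and 15.70 in Control 1 to 3. It was the 1 member of 10 whose groups did not overlap, against 11.0% of all features tested. The difference was 0.25 (SE 0.18, interval -0.18 to 0.67, limma adjusted p = 0.999), and it was 0.21 within the high and 0.20 within the low numbers. The separation depended on the scale: after quantile normalization Pgam2 overlapped and Tpi1 did not, and after centring on array medians no member was separated.

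Eno3, the muscle enolase, was at 18.59, 18.89 and 18.75 in cKO 1 to 3 and at 18.21, 18.40 and 18.65 in Control 1 to 3. Only cKO 1 and Control 3 overlapped. The Eno3 difference was the highest of the set, at 0.32 (SE 0.18, interval -0.12 to 0.76, unadjusted p = 0.126 and adjusted p = 0.999 by limma), and it was 0.17 within the high and 0.28 within the low numbers. Pkm, whose product makes pyruvate, was at 14.47, 14.54 and 14.45 in cKO 1 to 3, against 14.60, 14.50 and 14.39 in Control 1 to 3. The difference of -0.0086 (SE 0.17, interval -0.42 to 0.40) had both genotypes on both sides of the mean, and its sign turned after quantile normalization (0.031). Pkm yields the M1 and M2 isoforms by splicing, and 1 feature cannot tell them apart.

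**Figure D3:**
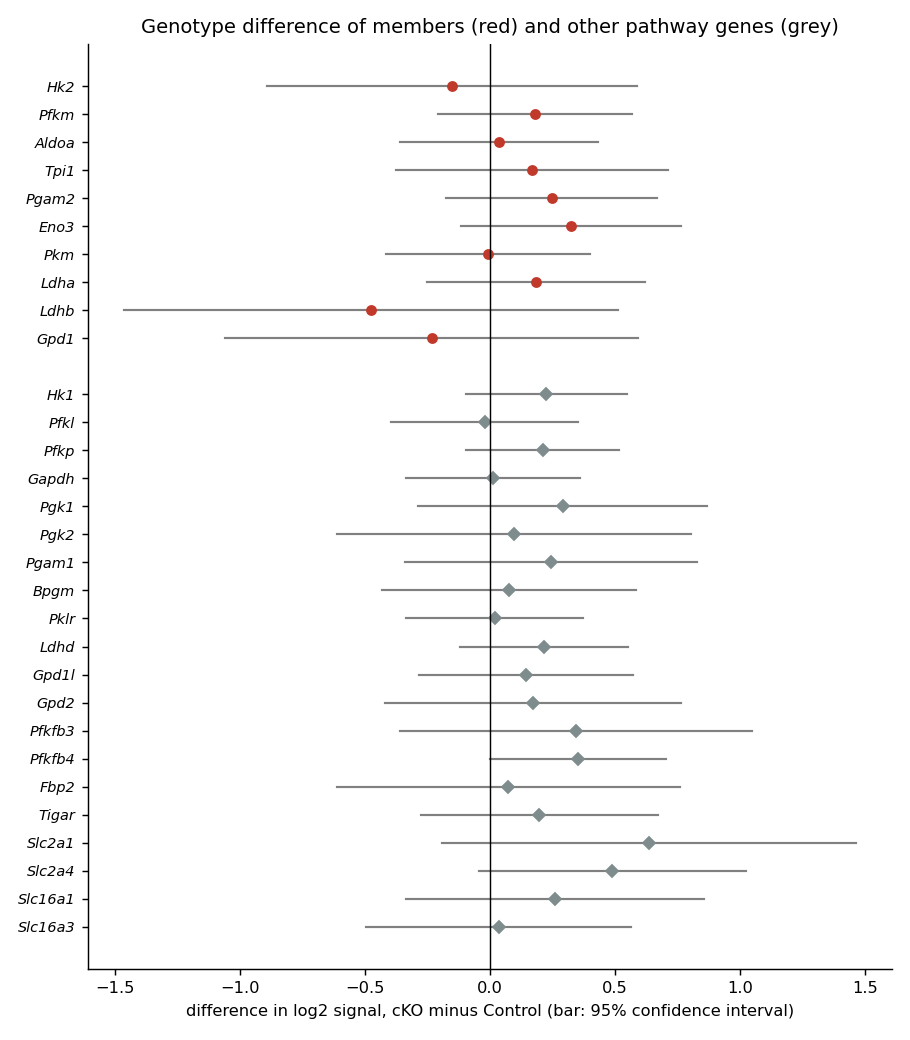
Difference in log2 signal, cKO minus Control (horizontal axis), with its 95% confidence interval from limma, for the 10 members (red circles) and the 20 other pathway genes that passed the filter (grey diamonds). Every interval includes 0, that of Ldhb is the widest among the members, and 19 of the 20 other genes lie right of 0.

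The lactate dehydrogenase subunits had differences of opposite sign. Ldha was at 11.89, 12.16 and 12.00 in cKO 1 to 3, against 11.73, 11.85 and 11.92 in Control 1 to 3. Control 3 lay above cKO 1, and the other arrays were in order of genotype. The Ldha difference was 0.18 (SE 0.18, interval -0.25 to 0.62). Ldhb was at 17.66, 16.83 and 16.89 in cKO 1 to 3, against 17.86, 18.17 and 16.78 in Control 1 to 3. Here Control 3 was the lowest array and cKO 1 lay with the high arrays. The Ldhb difference was -0.48 (SE 0.41, interval -1.46 to 0.51, limma adjusted p = 0.999). It was 0.08 within the high and -0.35 within the low numbers, and -0.14 (SE 0.20) with the range in the fit. It was -0.89 without Control 3 and -0.19 without Control 2.

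Taken within each array, the Ldhb signal minus the Ldha signal was 5.77, 4.67 and 4.89 in cKO 1 to 3, against 6.12, 6.32 and 4.87 in Control 1 to 3. It shows unequal change of the subunits and not their relative amounts. The mean was 5.11 ± 0.58 in cKO and 5.77 ± 0.79 in Control (SD, n = 3 each), a difference of -0.66 (SE 0.57), which was -0.09 within the high and -0.45 within the low numbers. It was -1.11 without Control 3, -0.99 without cKO 1, -0.44 without cKO 2 and -0.38 without Control 2, and -0.27 with the range in the fit. By number range the same quantity was 4.81 ± 0.12 on the high-numbered arrays and 6.07 ± 0.28 on the low-numbered ones (SD, n = 3 each).

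The promoters of Ldha, Ldhb, Hk2 and Eno3 are shown because these are the members whose arrays lay apart by mouse number range, upward for Ldha and Eno3 and downward for Ldhb and Hk2. The windows, from RefSeq on GRCm38.p6, run from 250 bases before to 50 bases after the annotated start, 5′ to 3′ on the gene's strand. Ldha lies at chr7:46845554-46845853 on the plus strand, Ldhb at chr6:142507908-142508207 on the minus strand, Hk2 at chr6:82774405-82774704 on the minus strand, and Eno3 at chr11:70656926-70657225 on the plus strand. For Ldha, which has 2 annotated windows, the first in the table is shown. Capitals mark ACGTG, 1 form of the core of the hypoxia response element, or its reverse complement.
Ldha: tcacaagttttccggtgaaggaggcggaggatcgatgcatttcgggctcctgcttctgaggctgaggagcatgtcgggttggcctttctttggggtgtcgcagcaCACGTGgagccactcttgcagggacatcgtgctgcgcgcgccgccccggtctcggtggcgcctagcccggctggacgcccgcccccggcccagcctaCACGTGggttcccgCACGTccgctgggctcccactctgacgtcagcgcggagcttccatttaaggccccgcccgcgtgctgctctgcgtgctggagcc
Ldhb: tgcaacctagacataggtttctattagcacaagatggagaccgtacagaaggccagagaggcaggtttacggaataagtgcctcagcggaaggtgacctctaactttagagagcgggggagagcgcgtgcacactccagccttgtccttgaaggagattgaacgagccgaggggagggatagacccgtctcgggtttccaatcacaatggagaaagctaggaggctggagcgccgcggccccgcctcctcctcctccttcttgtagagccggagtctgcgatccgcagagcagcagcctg
Hk2: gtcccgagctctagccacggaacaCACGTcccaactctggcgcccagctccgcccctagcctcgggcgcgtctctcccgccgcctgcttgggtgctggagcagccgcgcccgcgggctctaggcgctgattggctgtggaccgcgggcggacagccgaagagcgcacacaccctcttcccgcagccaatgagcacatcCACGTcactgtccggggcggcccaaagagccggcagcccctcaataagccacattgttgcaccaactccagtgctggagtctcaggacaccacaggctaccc
Eno3: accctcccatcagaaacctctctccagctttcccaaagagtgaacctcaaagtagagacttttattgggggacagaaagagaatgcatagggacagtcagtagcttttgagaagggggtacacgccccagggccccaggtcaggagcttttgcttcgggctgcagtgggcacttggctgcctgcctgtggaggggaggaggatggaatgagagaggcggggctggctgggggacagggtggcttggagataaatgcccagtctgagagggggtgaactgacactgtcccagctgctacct
The Ldha window held 5 matches to ACGTG on both strands together, 4 of them in 2 overlapping pairs that each form a palindrome. The Hk2 window held 2, and the Ldhb and Eno3 windows held 0 each. GCGTG, the other form of the core, was not searched, so a window with 0 matches may still hold a core. Of all 32851 promoter windows of this length, 19.6% held at least 1. Windows were found for 9 of the 10 members, all but Gpd1, and 7 of their 16 windows, of 5 genes, held the motif. Windows of a gene can overlap, as some of Aldoa do, so a site can count more than once. The shares are by window, and none was taken by gene. A GC box (GGGCGG) stood in 6 of the 16 windows against 35.7% of all, and an E-box (CANNTG, which the palindromes above also match) in 12 against 72.3%. The MEF2 site was found in 1, that of Pgam2, against 1.86%, and TCAGGTT, the MEF3 motif searched, in 0 against 4.07%. A match is a description of the letters and shows no binding.

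Gpd1 was the most variable member after Ldhb, with a spread of 1.11 log2 units over the arrays against 1.39 for Ldhb. It was at 7.69, 8.65 and 7.53 in cKO 1 to 3, against 8.06, 8.60 and 7.91 in Control 1 to 3. The second replicate of each genotype was high, and the lowest 2 arrays were cKO 3 and cKO 1. The difference was -0.23 (SE 0.35, interval -1.06 to 0.59), with 0.18 within the high and -0.64 within the low numbers, and with 1 array left out it ran from -0.58 (without cKO 2) to -0.02 (without cKO 3), with -0.03 without Control 2 and -0.10 without cKO 1. Gpd1 is abundant in fat cells too. The 7 adipocyte markers tested had list means of 6.72, 6.22 and 6.49 in cKO 1 to 3, against 6.14, 6.20 and 6.25 in Control 1 to 3. The part of fat cells in the Gpd1 values was not tested.

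The arrays of 4 members lay fully apart by mouse number range, and those of none of these 4 did so by genotype. Range and genotype were unbalanced, with 1 Control array among the high numbers and 1 cKO array among the low. Their effects therefore cannot be fully told apart. All 3 high-numbered arrays lay below all 3 low-numbered ones for Ldhb and Hk2, and above them for Eno3 and Ldha. That is 4 of 10, against 19.8% of all features tested. Of the 20 other pathway genes that passed the filter, 4 lay apart by range, Gapdh with the array maxima among them. After quantile normalization the count of members was 3 of 10 against 21.9%, with Ldha overlapping. Ldhb averaged 16.84 on the high-numbered and 17.90 on the low-numbered arrays, and with genotype in the fit the difference was -1.02 (SE 0.20, limma unadjusted p = 0.00234, adjusted p = 0.239). Hk2 averaged 14.64 on the high-numbered and 15.29 on the low-numbered arrays, a difference of -0.68 (SE 0.20, unadjusted p = 0.0158, adjusted p = 0.294). Eno3 differed by 0.29 (SE 0.16, adjusted p = 0.458) and Ldha by 0.16 (SE 0.19, adjusted p = 0.713). In the same fit the genotype difference was 0.23 (SE 0.16) for Eno3 and 0.13 (SE 0.19) for Ldha. It was -0.14 (SE 0.20) for Ldhb and 0.07 (SE 0.20) for Hk2. The unadjusted threshold of 0.05 was passed by 2 members, against 13.5% of all features, and the adjusted one by 0, against 0%. The comparison by range was added after the values were seen. Beside it, the erythroid markers that passed the filter, Alas2 and Bpgm, 2 of 7 listed, had list means of 5.76 to 5.97 on the high-numbered and 6.06 to 6.55 on the low-numbered arrays. The 8 muscle fibre markers had list means of 16.78 to 16.87 on the high-numbered and 16.69 to 16.74 on the low-numbered arrays. The array maxima were 19.92 to 19.93 on the high-numbered and 19.77 to 19.88 on the low-numbered arrays. Acta1 was at the maximum of every array, and Ckm and Mb moved with it on most arrays. No difference in muscle content is therefore read from this list. The part of either list in the result was not tested.

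**Figure D4:**
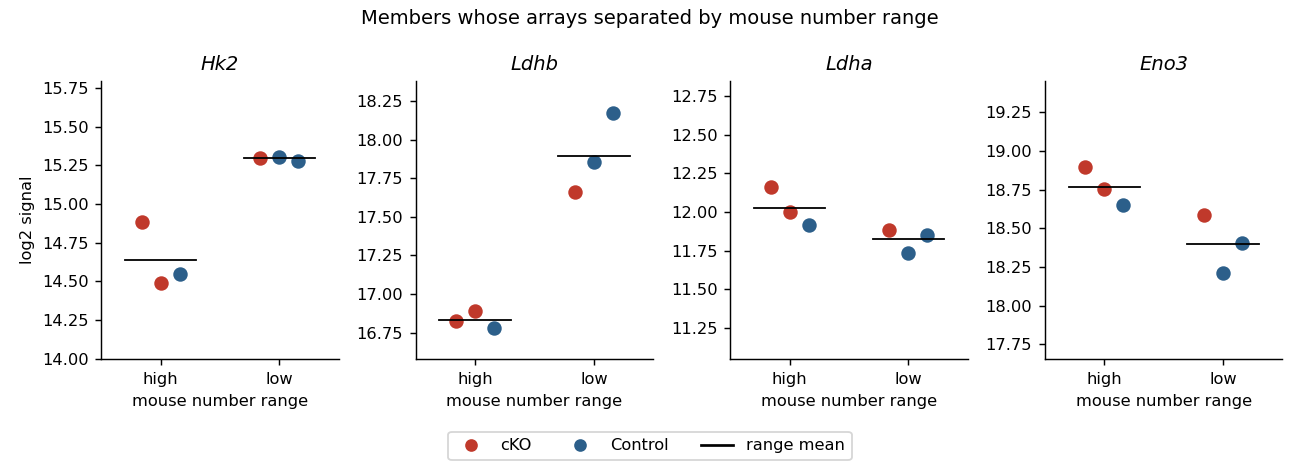
Log2 signal (vertical axis) of the 4 members whose arrays separated by mouse number range, with the high range left and the low range right. Points are mice, red for cKO and blue for Control, lines are range means, and all panels span the same number of log2 units. Ldhb and Hk2 were lower, and Ldha and Eno3 higher, in the high range.

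Several members were highest on the same array. cKO 2 held the highest value of 7 of the 10 (Pfkm, Aldoa, Tpi1, Pgam2, Eno3, Ldha and Gpd1), against 6.52% of all features tested. That share was not matched to the members' signal level. Of the 20 other pathway genes that passed the filter, 4 were highest on cKO 2. For Aldoa and Tpi1 the margin over the next array was below 0.01. After quantile normalization 5 of 10 were highest there, against 8.65%. Of the 10 fast fibre markers 7 were also highest on cKO 2, and they moved unevenly: Myh4, Actn3, Pvalb and Mybpc2 stood apart there, while the other 6 varied little over the arrays. Atp2a1, Tnnt3 and Tnnc2, counted among the 7, lay close to the array maximum on every array. Myl1 kept the same distance from the maximum on all 6 arrays, as Gapdh did. For these genes neither the small spread nor the highest array is read as fibre content. Myh4, the fastest myosin heavy chain, was at 16.88 on cKO 2 and at 13.51 and 13.67 on the other cKO arrays, against 11.72 to 13.62 in Control. Actn3, the Z-disc protein of fast fibres, was at 15.67 on cKO 2 and at 11.47 and 10.66 on the other cKO arrays, against 7.97 to 11.27 in Control. Atp2a1, the calcium pump of fast fibres, was at 19.58, 19.74 and 19.70 in cKO 1 to 3, against 19.61, 19.69 and 19.73 in Control 1 to 3. Mylpf, a fast myosin light chain, and Tnni2, the fast troponin I, were highest on Control 2, at 18.14 and 16.32, against 18.02 and 16.16 on cKO 2. Myl1 was highest on cKO 3, the array with the highest maximum. The list had 5 genes higher and 5 lower in cKO, with a median difference of 0.0046. Without cKO 2 the difference of Eno3 was 0.25, of Pgam2 0.19, of Ldha 0.11, of Pfkm 0.12 and of Tpi1 0.09, each still positive. The 9 slow fibre markers had list means of 15.89 to 15.97 in cKO and 15.80 to 15.95 in Control. The part of fibre composition in the members' values was not tested.

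**Figure D5:**
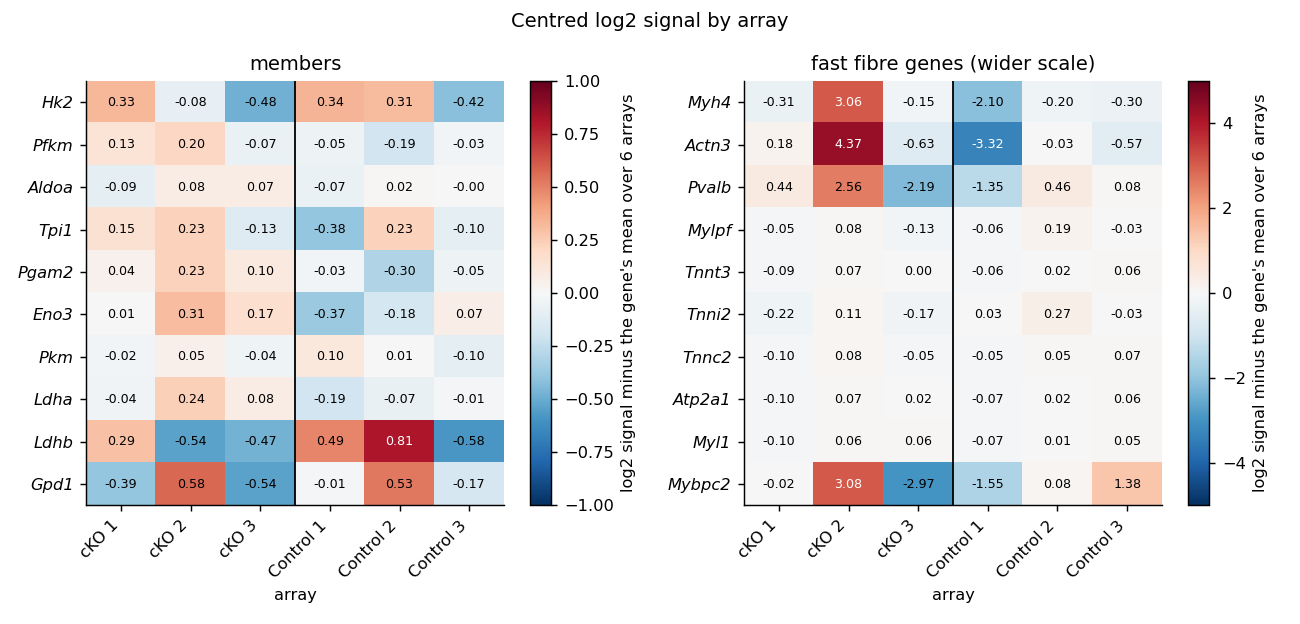
Log2 signal minus the gene's mean over the 6 arrays (colour and printed value) for the 10 members (left) and the 10 fast fibre markers on a wider colour scale (right), with cKO arrays left of Control arrays. The cKO 2 column holds the highest value of 7 members, all but Hk2, Pkm and Ldhb, and of 7 fast fibre markers, with Myh4, Actn3, Pvalb and Mybpc2 far above their means and the other 6 close to theirs.

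The members' mean profile, each gene centred on its own mean, was followed most closely over the 6 arrays by Foxo1, Thop1, Tmem134, Noct and Vwa3b. Pearson's r ran from 0.95 to 0.96 among these 5, and 41 of the 18217 genes compared had r above 0.9. With 6 arrays this describes likeness only.

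Of 32 other genes of the pathway and its transport steps, 26 had a feature and 20 passed the filter. In limma none of these 20 genes, 0 in all, met the adjusted or the unadjusted threshold of 0.05. With the number range as a block 2 of the 20, Slc2a1 and Pfkfb4, had an unadjusted p under 0.05, against 6.01% of all features, and 0 passed after adjustment. The means of 19 were higher in cKO, Pfkl being the exception, with a median difference of 0.20 against 0.07 over all features tested. Gapdh counts among the 19, though its differences between arrays were only those of the array maxima. After quantile normalization 13 of 20 were higher and the median was 0.08. All cKO arrays lay above all Control arrays for 5 of them (Slc2a4, Slc2a1, Pfkfb4, Ldhd and Pfkp), against 8.95% of all features, and for 0 after quantile normalization. For 2 of the 5 the margin was slight. Slc2a1 was at 8.7405 on cKO 2 and 8.7393 on Control 2, and Pfkp at 5.4954 on cKO 2 and 5.4886 on Control 1.

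The glucose transporters had the highest differences among these genes. Slc2a4, the insulin-responsive transporter of muscle and fat, was at 12.99, 13.31 and 13.07 in cKO 1 to 3, against 12.31, 12.86 and 12.72 in Control 1 to 3. All cKO arrays were above all Control arrays, cKO 1 and Control 2 being the closest. The Slc2a4 difference was 0.49 (SE 0.22, interval -0.04 to 1.02, limma unadjusted p = 0.0665, adjusted p = 0.999), and it was 0.47 within the high and 0.40 within the low numbers. Slc2a1, the widely expressed basal transporter, differed by 0.64 (SE 0.35, unadjusted p = 0.112), with Control 3 at 7.49 and the other 5 arrays at 8.59 to 9.03. With the range block it differed by 0.86 (SE 0.27, limma unadjusted p = 0.0195, adjusted p = 0.765). The Slc2a1 difference was 1.36 within the high numbers, where Control 3 was the only Control array, and 0.36 within the low numbers. Pfkfb4, an enzyme that makes and removes the phosphofructokinase activator fructose 2,6-bisphosphate, differed by 0.35 (SE 0.15, limma unadjusted p = 0.0505), and with the range block by 0.41 (SE 0.14, unadjusted p = 0.0305, adjusted p = 0.765). Pfkfb3 of the same family differed by 0.35 (SE 0.29) with opposite signs in the ranges, -0.41 within the high and 0.93 within the low numbers.

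Genes of the same reactions as the members had differences of the same order. For hexokinase, Hk1 differed by 0.22 (SE 0.13). For phosphofructokinase, Pfkp differed by 0.21 (SE 0.13) and Pfkl by -0.02 (SE 0.16). For phosphoglycerate mutase, Pgam1 differed by 0.24 (SE 0.24), which was 0.77 in the high number range and -0.20 in the low one. The mitochondrial Gpd2, which completes the glycerol phosphate shuttle, and the Gpd1 paralog Gpd1l differed by 0.17 (SE 0.25) and 0.14 (SE 0.18). Pgk1, the phosphoglycerate kinase of the first ATP-yielding step, had 2 features, which differed by 0.29 (SE 0.24) and 0.15 (SE 0.20). The lactate transporters Slc16a1 and Slc16a3 differed by 0.26 (SE 0.25) and 0.03 (SE 0.22).

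Regulators known for glycolytic genes did not pass either, with 7 of 9 listed measured, 6 higher in cKO, and 0 past an adjusted or an unadjusted p of 0.05 by limma. Mlxipl, a glucose-sensing transcription factor also called ChREBP, differed by 0.41 (SE 0.24), and its relative Mlxip by 0.33 (SE 0.25). Hif1a, the hypoxia-responsive factor, differed by 0.24 (SE 0.21) and its paralog Epas1 by -0.10 (SE 0.27). Ppargc1a, a coactivator of oxidative metabolism, was at 11.67, 15.02 and 12.75 in cKO 1 to 3, against 12.46, 14.26 and 12.01 in Control 1 to 3. Its second replicates were the highest in both groups, as for Gpd1.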

How the data were processed

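RNA from soleus of 6 mice was measured on Affymetrix whole-transcript arrays, from 100 ng of total RNA per the labels' protocols. The deposited values, a column per array, were read as log2 signals from their range of 1.92 to 19.93. Log base, background correction, summarisation, normalization and genome build are not given in the sources used here. Of 72688 features, 6732 without values were left out. Features listing 1 distinct symbol in the platform annotation were named, and 827 symbols were updated by Entrez identifier through RefSeq (GRCm38.p6). Features above their array's median on at least 3 arrays were tested (33334) with limma 3.58.1 in R 4.3.3 (lmFit, eBayes with an intensity trend, two-sided). Benjamini-Hochberg adjustment was over all of them. The method was tested on simulated data with residual spreads taken from these arrays. At an adjusted p under 0.05, 27% of 2-fold and 64% of 4-fold changes were recovered, so most 2-fold changes would be missed. Groups and replicate numbers came from sample titles. Alternatives were other normalizations, filters, variance models, array weights, blocks and left-out arrays. Figures used Python 3.11.15, pandas 2.3.3 and matplotlib 3.10.9.

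Members, lists and tests were chosen with earlier results of these data known. All 10 members and the pathway genes of the fixed list could be named, with fixed fibre genes and regulators. Mybpc2, Alas2 and Bpgm come from the fixed marker lists, and the 5 genes of most similar profile from a fixed rule. The ceiling of an array was taken as within 0.01 of its maximum.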

Additional observations from a re-analysis of the deposited data

Results flagged for a closer look

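For 3 members the genotype difference ran in opposite directions in the 2 ranges of mouse numbers, with every cKO array above the Control array among the high numbers and the cKO array below both Control arrays among the low numbers. The difference of the effects, high minus low range, was 0.43 log2 units for Ldhb (interaction in limma, adjusted p = 0.548), 0.18 for Pkm (adjusted p = 0.786) and 0.15 for Aldoa (adjusted p = 0.826). For Aldoa, whose offset from the array maximum was shared by 4 arrays, no direction is read from these values. The mean differences of Gpd1 also had opposite signs, 0.18 within the high and -0.64 within the low numbers. The difference of its effects, 0.83, was the largest among the members. It is not counted with the 3, since cKO 3 lay below Control 3.

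Among the other pathway genes the same opposition of directions was seen for Pgam1 (0.97), Gapdh (0.081, with the shared offset from the array maximum), Bpgm (-0.61), Pklr (-0.30) and Pfkfb3 (-1.34), with adjusted p-values of 0.238 to 0.898 by limma. Among regulators it was seen for Epas1 (0.96), Six4 (-0.55), Eya1 (1.56) and Ppargc1a (3.57), with adjusted p-values of 0.322 to 0.369. None of these differences passed the threshold in limma, and 0 features did so over the whole table, where 17.2% had an unadjusted p under 0.05. Negative values mark the reverse order, with cKO arrays below Control among the high numbers and above it among the low. With 1 Control array in the high range and 1 cKO array in the low range, a single array decides each direction. Groups of 3 arrays were too small to look for outlying samples.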

How the results depend on the processing

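No member met an adjusted p of 0.05 under any of the 17 alternatives run. Pfkm, Tpi1, Pgam2, Eno3, Ldha and Ldhb kept the sign of their difference in all of them. The filters, variance models and replicate block leave a difference as it is, so the signs under these were fixed in advance. The Hk2 difference turned positive with the number range as a block (0.0727), with that block after quantile normalization (0.0425) and without cKO 3, and ran from -0.4021 to 0.0481 with an array left out. The Pkm difference turned positive after quantile normalization (0.0309), with the range block (0.0117), with both (0.0232), and without Control 1 (0.0416), cKO 1 (0.0017) or cKO 3 (0.0091), and ran from -0.0595 to 0.0416 with an array left out. The Aldoa difference turned negative after median centring (-0.0490) and with the range block after quantile normalization (-0.0270). The Gpd1 difference turned positive with array weights (0.15). The change of Ldhb relative to Ldha ran from -1.13 (array weights) to -0.19 (range block after quantile normalization). Members with an unadjusted p under 0.05 numbered 2 with array weights (Eno3 and Ldhb) and 0 to 1 with an array left out, the 1 being Ldhb without Control 3. The weights were 0.25, 4.01 and 1.54 for cKO 1 to 3, and 1.54, 0.70 and 0.59 for Control 1 to 3. They favoured the high-numbered cKO and the low-numbered Control arrays, so that fit tells genotype from range less well. Over all features 14 met the adjusted threshold without Control 3, in a range of 0 to 14 with an array left out. Features with an unadjusted p under 0.05, 1501 of 33334 as deposited, numbered 4256 with array weights and 963 to 3142 with an array left out (lowest without cKO 3, highest without Control 3). The count of members with groups apart was 0 after median centring. The cause of these shifts was not tested. The members' median difference ran from 0.017 to 0.18, and was 0.17 without Aldoa, an alternative added after the values were seen. Each member had 1 feature, so averaging the features of a gene left every member's difference as it was. Leaving out saturated members was not run, since 0 were saturated. Same-numbered mice were not paired: the deviations of pairs 1, 2 and 3 correlated at 0.13, -0.20 and 0.21, and cKO 1 and cKO 2 correlated best with another number. With a replicate block 0 members and 0 features met the adjusted threshold, and 1322 features had an unadjusted p under 0.05.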
